A study of Mus musculus with 78 samples.

Results

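The genes described here are the mouse proteasome genes, taken as every protein-coding gene whose symbol starts with Psma, Psmb, Psmc, Psmd, Psme, Psmf or Psmg. The rule named 51 genes, of which 50 were listed at both stages, among 15218 genes listed at the 4-cell stage and 15342 at the 8-cell stage. Psmb8 was listed at neither stage and has no value here. By role, 31 of the 51 encode the constitutive subunits of the 26S proteasome, with 7 genes for the α ring and 7 for the β ring of the 20S core, and 6 ATPases and 11 non-ATPases for the 19S cap. Psma8 encodes a germline α subunit, and Psmb8 to Psmb11 encode the 4 subunits used in immune cells or in the thymus. Another 3 genes (Psmd5, Psmd9 and Psmd10) encode assembly chaperones of the cap, 4 (Psmg1 to Psmg4) chaperones of the core, 4 (Psme1 to Psme4) activators, and Psmf1 the inhibitor PI31. The symbols Psmc3ip, Psme2b and Psme3ip1 were caught by their spelling alone. Psmc3ip encodes a recombination protein and no subunit, and Psme2b is a single-exon copy of Psme2.

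RNA of single blastomeres was sequenced by Smart-seq2 from hybrid embryos of STOCK mice homozygous for the Gt(ROSA)26Sortm1(CAG-Brainbow2.1)Cle allele crossed with homozygous STOCK Tg(CAG-cre/Esr1*)5Amc/J mice, which hold the inducible Cre, so that every embryo of both stages carried 1 copy of each. The CAG promoter drives the Cre recombinase in all cells, and its nuclear entry was induced in 2-cell embryos with 4-hydroxytamoxifen for 2 h, after which the embryos were cultured in KSOM to the 4-cell or the 8-cell stage. No untreated or Cre-free embryos enter the comparison. The tables held 24 blastomeres of the 4-cell and 26 of the 8-cell stage, and since no column names an embryo or a lineage, none was assigned, each stage counts as 1 sample, no test was made, and all values are descriptions of these blastomeres. The values are FPKM, fragments scaled by the length of the gene and the fragments of the library, so levels of different genes can be set side by side but the total RNA of a blastomere is not measured.

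The proteasome degrades proteins that carry ubiquitin chains. Its α rings gate the barrel of the core, 3 of the β subunits (Psmb5, Psmb6 and Psmb7) cut peptide bonds, the ATPases of the cap unfold the substrate, and the other cap subunits bind and remove ubiquitin. In early embryos the ubiquitin and proteasome pathway is known for clearing maternal proteins while the embryo takes over from stores laid down in the oocyte. The transcription factor Nfe2l1 is known to raise subunit genes together through antioxidant response elements when the proteasome is impaired.

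The promoters with such an element are shown because the subunit genes are described as a group below. The element was searched as the letters TGACNNNGC, on both strands, in the 250 bases before each start site in the RefSeq annotation of GRCm38.p6. Some genes had several start sites, with 32851 promoters for 27025 genes, and a gene counted if any of its promoters held the element. Of the 25 constitutive subunits with a promoter in the table used, 4 held it (16%), as did 1 of the 18 other members, Psmd9, against 11.5% of 27025 genes. Capitals mark the match, and the lines read 5′ to 3′ along the strand of the gene.
Psmb5, catalytic β subunit, chr14:54618019-54618057, minus strand: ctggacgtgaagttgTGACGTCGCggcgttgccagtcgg
Psmb6, catalytic β subunit, chr11:70525333-70525356, plus strand: gcggactaaagagagTGACGGAGC
Psmc6, ATPase, chr14:45329582-45329620, plus strand: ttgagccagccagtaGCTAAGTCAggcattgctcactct
Psmd12, non-ATPase of the lid, chr11:107479278-107479304, plus strand: tctGCTGTGTCAcatttgcccccctca
Psmd9, chaperone of the cap, chr5:123228144-123228182, plus strand: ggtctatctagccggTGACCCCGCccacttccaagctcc
The Psmb6 match lies before the start site searched but inside the gene as annotated, which begins at 70525324. A match describes the letters and is no evidence of binding. These genes did not share a level or a stage difference. Psmb5 was among the lowest subunits of the core and Psmb6 was near its middle, while Psmc6 had a positive and Psmd12 a negative difference between stages in the values below.

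The FPKM denominators, recovered from the smallest steps of the values, were 6.87 to 16.9 M fragments (M for mega) at the 4-cell stage and 2.34 to 21.7 M at the 8-cell stage. The blastomeres had 3009 to 8276 genes above an FPKM of 1 at the 4-cell stage and 3548 to 8078 at the 8-cell stage, and at each stage 3 had fewer than 5000, called gene-poor here. Of 8 markers of oocytes and blastomeres all were listed, with Dppa3 at means of 3538 and 3641, Zp3 at 79.3 and 60.3 and Pou5f1 at 38.3 and 107 FPKM. The other 5 (Gdf9, Bmp15, Ooep, Nlrp5 and Tcl1) were low, with means of 2.09 to 11.8 and of 0.77 to 3.77 FPKM, and over the 8 markers 1 was at least 1.5-fold higher and 4 at least 1.5-fold lower at the 8-cell stage, against 11.6% and 15.9% of all genes, and 1 and 5 without gene-poor blastomeres, against 10.4% and 17.6%. Of 6 markers of cumulus and granulosa cells, 3 had values in the 4-cell and 2 in the 8-cell table, and their summed level of 9.03 to 104 and 3.65 to 111 FPKM was nearly all Amhr2, while Has2 was at most 0.03. Markers of blood and immune cells summed to at most 6.71 and 24.9 FPKM with Ptprc and both haemoglobin genes unlisted, and fibroblast markers to at most 5.11 and 6.13. The part of these transcripts in the results was not tested.

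The 31 constitutive subunits were among the most abundant transcripts of the blastomeres. Their mean levels lay between the 90.0th and the 99.5th percentile of the listed genes at the 4-cell stage and between the 92.7th and the 99.5th at the 8-cell stage. Summed per blastomere, they reached 2815 FPKM in the lowest, 9388 in the median and 11925 in the highest blastomere of the 4-cell stage, with a mean of 9000 ± 2107 (SD over 24 blastomeres). At the 8-cell stage the sum ran from 8159 over a median of 9654 to 13711, with a mean of 9981 ± 1422 (SD over 26 blastomeres). The ranges overlapped from 8159 to 11925, and 4-cell blastomeres made up the low end. As a share of all FPKM of a blastomere the subunits took 1.05% to 2.49% at the 4-cell and 2.10% to 2.65% at the 8-cell stage.

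**Figure D1:**
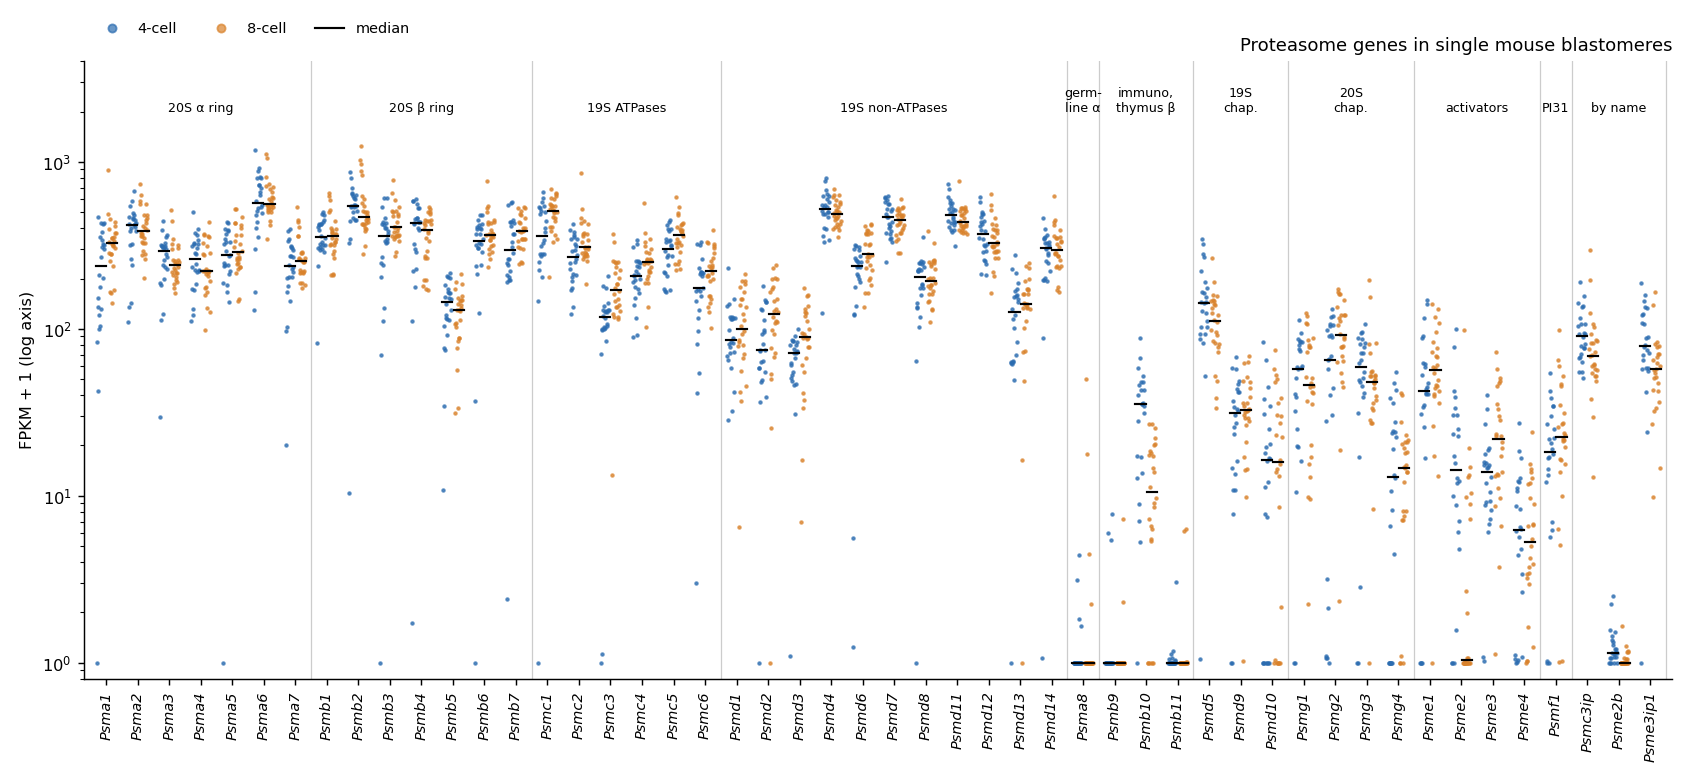
Level of the 50 listed proteasome genes, as FPKM plus 1 on a log axis, in 24 4-cell (blue) and 26 8-cell (orange) blastomeres, each point 1 blastomere, ordered from left to right by its number of genes, with the median as a bar. The 4 groups of constitutive subunits on the left sit mostly between 100 and 600 FPKM, and the chaperones and activators lie lower. Psma8, Psmb9, Psmb11 and Psme2b are at or near 0 in most blastomeres, with Psma8 reaching 49.0 FPKM at the 8-cell stage.

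The α ring subunits had means of 238 to 595 FPKM at the 4-cell and 243 to 612 at the 8-cell stage. Psma6 was the highest of the 31 at both stages. It measured 129, 563 and 1182 FPKM in the lowest, median and highest 4-cell blastomere and 344, 554 and 1112 FPKM in the 8-cell ones, and it was the highest subunit in 12 of 24 and 12 of 26 blastomeres. The remaining α subunits lay within 2.5-fold of it in the 4-cell and 2.52-fold in the 8-cell means, with Psma7 lowest at the 4-cell and Psma4 at the 8-cell stage.

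The β ring had means of 135 to 535 FPKM at the 4-cell and 122 to 559 at the 8-cell stage. Psmb2, a structural subunit, led it with 9.33, 543 and 869 FPKM and then 278, 469 and 1242 FPKM as lowest, median and highest blastomere. The catalytic subunits were not level with each other. Psmb5, which carries the chymotrypsin-like site, had 9.88, 144 and 214 FPKM at the 4-cell stage and 30.5, 129 and 212 at the 8-cell stage. Psmb6 had medians of 334 and 366 FPKM and Psmb7 of 295 and 384. Psmb5 was among the 5 lowest of the 31 subunits in 9 of 24 and 21 of 26 blastomeres, although the assembled core holds the β subunits in equal number. The ratio of the highest to the lowest mean in the ring was 3.97 and 4.57.

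The ATPases of the cap had means of 112 to 378 FPKM at the 4-cell and 182 to 495 at the 8-cell stage. Psmc1 was the highest, with medians of 359 and 508 FPKM, and Psmc3 the lowest, with medians of 117 and 170. Psmc1 was the highest of the 31 subunits in none of the 24 4-cell and in 6 of the 26 8-cell blastomeres.

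The non-ATPases of the cap had the widest range, with means of 64.6 to 515 FPKM at the 4-cell and 89.6 to 497 at the 8-cell stage, a ratio of 7.97 and 5.55. The highest were Psmd4, a receptor for ubiquitin chains, with means of 515 and 497, and the lid subunits Psmd11 with 491 and 459 and Psmd7 with 465 and 438. The lowest were Psmd3 of the lid, with 64.6 and 89.6, and Psmd2 and Psmd1, the large scaffold proteins of the base, with 84.7 and 124 and with 94.9 and 110. Psmd14, the enzyme that cuts ubiquitin off the substrate, had means of 276 and 312. Psmd3 was among the 5 lowest subunits in 22 of 24 and 24 of 26 blastomeres. The order of the 31 means was much alike at both stages, with a Spearman correlation of 0.95 across the 31 genes, which are no independent replicates and share the exon lengths used for FPKM at both stages.

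Most members outside the constitutive complex were lower, although the means of Psmd5 at both stages, of Psmc3ip and Psme3ip1 at the 4-cell stage and of Psmg2 at the 8-cell stage lay within the range of the subunits. The chaperones of the cap had means of 153 and 112 FPKM for Psmd5, 29.2 and 32.9 for Psmd9, and 18.7 and 21.4 for Psmd10. Psmd10, also known as gankyrin, was listed at 0 in 7 of 24 and 6 of 26 blastomeres. The chaperones of the core, Psmg1 to Psmg4, which help assemble the α ring, had means of 16.7 to 60.0 FPKM at the 4-cell and 14.3 to 95.5 at the 8-cell stage. Psmf1 had medians of 17.4 and 21.6 FPKM. The recombination gene Psmc3ip had means of 95.1 and 80.7, and Psme3ip1, whose protein binds the activator Psme3, 87.8 and 59.6.

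The listed immune and germline subunits had a median of 0 FPKM at both stages, with 1 exception. Psma8 was above 0 in 4 of 24 and 4 of 26 blastomeres, with highest values of 3.43 and 49.0 FPKM. Psmb9, the immunoproteasome partner of Psmb6, was above 0 in 3 of 24 and 2 of 26 blastomeres and reached 6.81 and 6.25 FPKM, and the thymus subunit Psmb11 reached 2.05 and 5.29. Psmb10, the immunoproteasome partner of Psmb7, was present in most blastomeres. It measured 0, 34.4 and 87.3 FPKM as lowest, median and highest of the 4-cell stage, from a median of 551 fragments, and 0, 9.51 and 25.9 at the 8-cell stage, from 249 fragments. All 26 8-cell values lay below the 4-cell median, and 16 of the 24 4-cell values lay above the highest 8-cell value, while the low ends of both stages overlapped. As a share of Psmb7 plus Psmb10, Psmb10 took a median of 7.24% and at most 25.3% at the 4-cell stage, and a median of 2.54% and at most 9.56% at the 8-cell stage. The same share for Psmb9 had a median of 0% at both stages and a highest value of 1.82% and 1.69%.

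**Figure D2:**
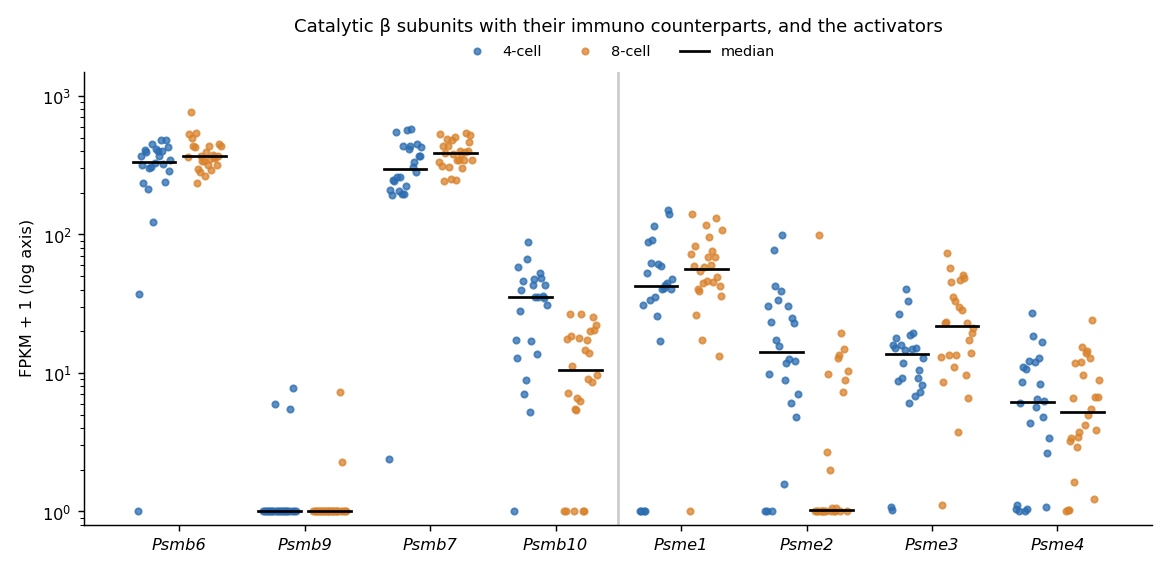
Level of the catalytic subunits Psmb6 and Psmb7, each beside its immunoproteasome partner, and of the 4 activators, as FPKM plus 1 on a log axis, 1 point a blastomere (blue 4-cell, orange 8-cell) with the median as a bar. Psmb10 is the only immuno subunit seen in most blastomeres, with medians of 34.4 and 9.51 FPKM, and Psme2 has medians of 13.2 and 0.03.

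Psmb10 and Psmb9 belong to the genes that interferon induces, so other genes of that response are given beside them. Of 12 interferon and antigen presentation genes, 7 were listed at both stages, 1 of them was at least 1.5-fold higher and 1 at least 1.5-fold lower at the 8-cell stage, against 11.6% and 15.9% of the 13604 genes listed at both stages, and the median difference was 0.02 on the log2(FPKM + 1) scale. Without gene-poor blastomeres 0 were higher and 1 lower, against 10.4% and 17.6%, and the median was 0.07. Irf1 had means of 0.16 and 0.13 FPKM and Tap1, a peptide transporter encoded beside Psmb9, 0.03 and 0.18. B2m, the light chain of class I molecules, was lower at the 8-cell stage, with means of 105 and 48.1 FPKM, a difference of -0.97, or -1.47 without gene-poor blastomeres. The heavy chain H2-K1 had 13.6 and 29.6, a difference of 0.63, or 0.44 without gene-poor blastomeres. These genes did not share one direction.

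The activators replace the cap at the ends of the core. Psme1 and Psme2 encode the α and β chains of the activator PA28, which assemble into 1 mixed ring, and both were measured in most 4-cell blastomeres. Psme1 had a median of 41.3 FPKM (range 0 to 148) at the 4-cell and 55.3 (0 to 140) at the 8-cell stage. Psme2 had a median of 13.2 (0 to 98.3) and 0.03 (0 to 98), and was listed at 0 in 3 of 24 and 13 of 26 blastomeres. Psme1 exceeded Psme2 in 17 of 24 and 23 of 26 blastomeres, and the ratio of their means was 2.35 and 8.28. The 8-cell ratio depends on 1 blastomere with 98 FPKM of Psme2, where the next highest had 18.3 and the mean was 7.3. Psme2b has a sequence close to that of Psme2, and unique alignment does not keep reads that match both equally. How many such reads were lost was not measured, so the level of Psme2 is uncertain. Psme2b itself reached at most 1.51 and 0.66 FPKM. Psme3, which forms the nuclear activator PA28γ, had medians of 12.8 and 20.9, and Psme4, the activator PA200, of 5.2 and 4.27.

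Between blastomeres of a stage, most subunits were detected throughout. All 31 subunits were above an FPKM of 1 in 21 of the 24 4-cell and in 25 of the 26 8-cell blastomeres. By gene, 18 of 31 were above 1 in every 4-cell blastomere, against 8.88% of all listed genes, and 29 of 31 in every 8-cell blastomere, against 11.4%. Without the gene-poor blastomeres this held for 30 of 31 in 21 4-cell blastomeres, against 17.9% of listed genes, and for all 31 in 23 8-cell blastomeres, against 15.8%. Most listed genes are less abundant than the subunits, and the share among genes of their level was not counted. The exception among the subunits was Psmc3, at 0.12 FPKM in a 4-cell blastomere with 5336 genes, with 82.9 or more in the other 20.

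The 4-cell blastomere with 3009 genes held the subunits unequally. In it 12 of 31 were below an FPKM of 1, 13 were at 1 or more but below 50% of their stage median, and 6 were at 50% or more of it. Psma1, Psma5, Psmb3, Psmb6, Psmc1, Psmc3, Psmd2, Psmd8 and Psmd13 were at 0, where the stage medians were 73.9 to 359 FPKM. In the same blastomere Psmd7 stood at 571, Psmd11 at 440, Psmd12 at 348 and Psmc2 at 248 FPKM, against stage medians of 466, 479, 367 and 269. Over all 4758 genes with a mean FPKM of at least 10, 52.0% were below 1 in this blastomere. The next lowest 4-cell blastomere, with 3699 genes, had 1 subunit below 1 (Psmb4) and a sum of 5749 FPKM. The 8-cell blastomere with 3548 genes had 2.34 M fragments, the fewest of its stage, where the median was 17.2 M. The 4-cell blastomere with 3009 genes had 9.65 M. In the 8-cell blastomere with 3548 genes 2 subunits were below 1 (Psmd2 and Psmd13), and the sum was 12152, above the stage median. Gene-poor blastomeres thus lay at both ends of the summed level. The study gives shares of mitochondrial reads by blastomere, which were not used here, since the columns were not assigned to single blastomeres of its tables.

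**Figure D3:**
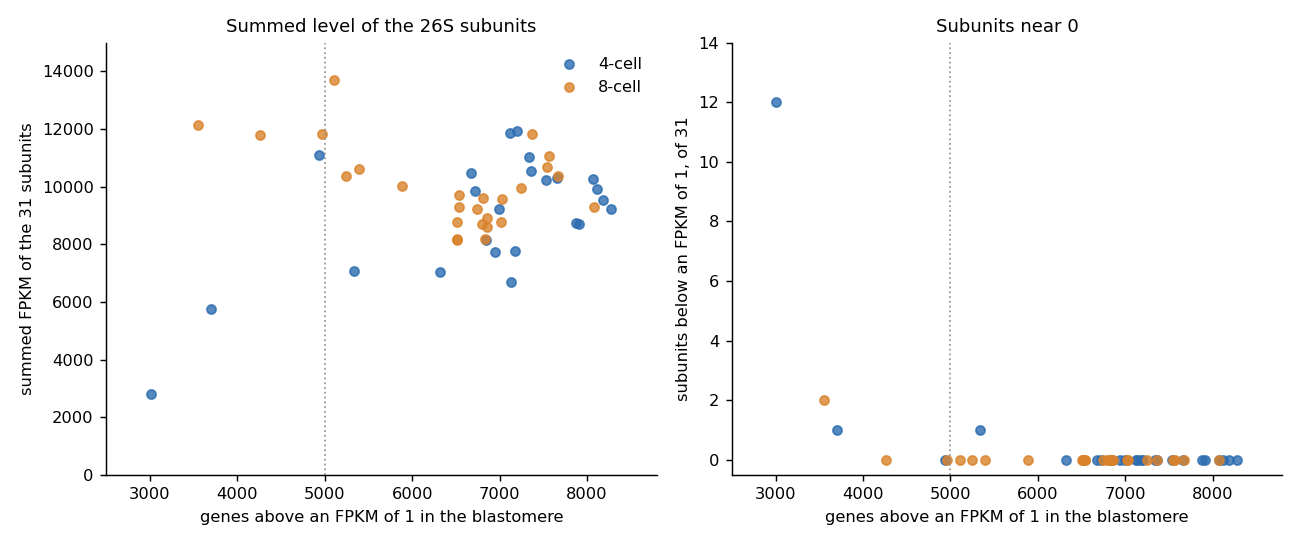
Left, summed FPKM of the 31 constitutive subunits, and right, the number of them below an FPKM of 1, against the number of genes above an FPKM of 1, 1 point a blastomere (blue 4-cell, orange 8-cell). The dotted line marks 5000 genes. The 4-cell blastomeres with 3009 and 3699 genes have the lowest sums, 2815 and 5749, while the 8-cell blastomere with 3548 genes has a sum of 12152.

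The spread of each gene was taken as the SD of log2(FPKM + 1) over the blastomeres of a stage. Its median over the 31 subunits was 1.21 at the 4-cell stage, against 1.56 over the 4758 genes with a mean FPKM of at least 10. At the 8-cell stage it was 0.44, against 1.46 over 4660 genes. Much of the 4-cell value came from 1 blastomere. Leaving out only the one with 3009 genes gave a median of 0.54, and leaving out all 3 gene-poor blastomeres gave 0.47 in 4-cell and 0.40 in 8-cell blastomeres, against 1.04 and 1.16 over the same genes. Spread is smaller for abundant genes in general. Over genes with a mean of at least 100 FPKM, a level that 28 and 30 of the subunits reached, the median was 0.75 at the 4-cell stage (1019 genes) and 0.55 at the 8-cell stage (993 genes). Beside genes of this level the subunits thus had the larger median spread at the 4-cell and the smaller at the 8-cell stage. Without gene-poor blastomeres the medians of these genes were 0.51 and 0.48, near the values of the subunits.

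An SD of at most 0.5 was called even. This held for 5 of 31 subunits at the 4-cell stage, against 4.81% of genes with a mean of at least 10, and for 21 of 31 at the 8-cell stage, against 9.31%. Without the gene-poor blastomeres it held for 19 of 31, against 12.8%, and 25 of 31, against 13.9%. These shares do not match the level of the subunits. Genes with a mean of at least 100 FPKM then had median SDs of 0.51 and 0.48, near the limit, and their share was not counted. Over all blastomeres the lowest SDs were those of Psmd11 and Psmd7 at the 4-cell stage and of Psmd11, Psmd4 and Psmd7 at the 8-cell stage. Without gene-poor blastomeres the same 3 were lowest at the 8-cell stage, while at the 4-cell stage Psmd11 (0.26) was followed by Psmb1 and Psmb2 (0.27 each) and then Psmd7 (0.32). Over all blastomeres Psmd11, which clamps the lid to the core, had an SD of 0.29 and 0.24, with values of 313, 479 and 733 FPKM as lowest, median and highest at the 4-cell stage and 371, 437 and 765 at the 8-cell stage. Psmd7, the partner of the ubiquitin-cutting Psmd14, had 0.34 and 0.28. By subcomplex, without gene-poor blastomeres, 4 and 6 of the 7 α subunits, 5 and 6 of the 7 β subunits, 2 and 6 of the 6 ATPases and 8 and 7 of the 11 non-ATPases were even at the 4-cell and the 8-cell stage. Chaperones and activators, at lower levels, had median SDs over all blastomeres of 1.6 and 1.19 (cap chaperones), 2.06 and 1.39 (core chaperones) and 1.71 and 1.36 (activators). Without gene-poor blastomeres these were 0.87 and 0.74, 1.60 and 1.31, and 1.49 and 1.07.

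**Figure D4:**
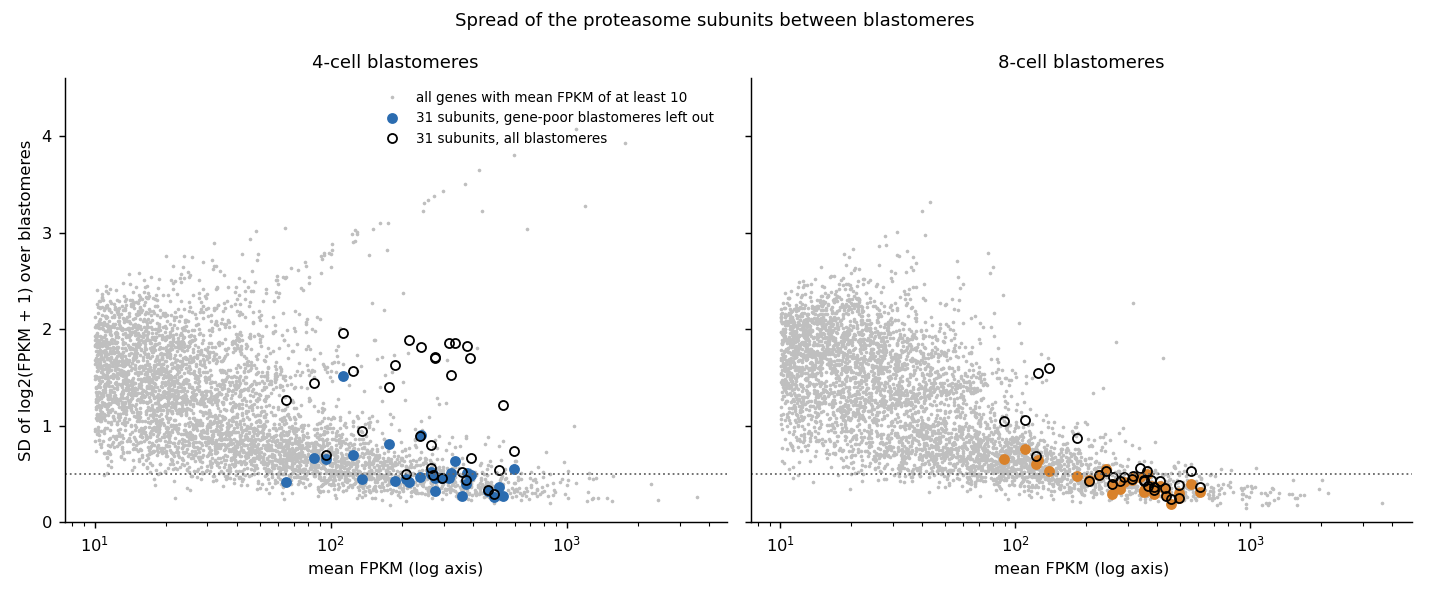
SD of log2(FPKM + 1) over blastomeres against mean FPKM (log axis) at the 4-cell (left) and 8-cell (right) stage, without gene-poor blastomeres for all genes with a mean of at least 10 (grey) and for the 31 subunits (filled), and with them for the subunits (open circles). The dotted line marks an SD of 0.5. Without the gene-poor blastomeres the subunits have median SDs of 0.47 and 0.40 and lie in the band of other genes of their level, and the open circles of the 4-cell stage reach 1.96.

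For comparison, the spread of other complexes of many subunits was measured in the same way. The 8 genes of the CCT chaperonin, which folds actin and tubulin, had median SDs of 0.55 and 0.35 at the 4-cell and 8-cell stage, and of 0.38 and 0.33 without gene-poor blastomeres. The 9 genes of the COP9 signalosome, a relative of the proteasome lid that acts on cullin ligases, had 1.46 and 0.83, and 0.72 and 0.70 without gene-poor blastomeres, at means of 36.7 to 312 and 23.9 to 293 FPKM. Pairs of subunits were also compared within a stage. The median Pearson correlation of log2(FPKM + 1) over the 465 pairs of subunits was 0.57 in 4-cell and 0.16 in 8-cell blastomeres, against 0.13 and 0.03 over pairs of genes with a mean of at least 10. Without the gene-poor blastomeres it was 0.30 and 0.21, against 0.01 and 0.01. These are descriptions over 24 and 26, or 21 and 23, blastomeres that share embryos, library steps and depth, and abundant genes are measured with less counting noise.

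Between the stages, the subunits differed little, and the counts depended on the gene-poor blastomeres. Differences are those of the means of log2(FPKM + 1), 8-cell minus 4-cell, and a gene was called at a 1.5-fold difference. Of the 31 constitutive subunits, 7 were called higher at the 8-cell stage, against 11.6% of the 13604 genes listed at both stages and 21.6% of the 5199 of these with a mean of at least 10 at a stage. None was called lower, against 15.9% and 23.9%. The median difference over the 31 was 0.33, and over all genes -0.04. Without the gene-poor blastomeres 1 of 31 was called higher, against 10.4% of all genes and 18% of those with a mean of at least 10, none was called lower, against 17.6% and 25.9%, and the median was 0.04. Leaving out the 4-cell blastomere with 3009 genes alone gave 1 called subunit and a median of 0.12.

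The 7 subunits called higher over all blastomeres were Psma1, Psmb3, Psmb6, Psmc1, Psmc3, Psmc6 and Psmd6. Of these, 5 were at 0 in the 4-cell blastomere with 3009 genes, and Psmd6 and Psmc6 were at 0.24 and 2.0 FPKM there. Psmc3, an ATPase of the ring, was the one still called without gene-poor blastomeres. It measured 0, 117 and 207 FPKM as lowest, median and highest at the 4-cell stage and 12.4, 170 and 367 at the 8-cell stage. Its difference was 1.01, 0.86 without gene-poor blastomeres, and 0.54 between medians, and 23 of 26 8-cell values lay above the 4-cell median and 9 above the highest 4-cell value. Without gene-poor blastomeres the call rested on the single 4-cell value of 0.12 FPKM, and leaving that blastomere out as well gave 0.54, within 1.5-fold.

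The ATPases were the subcomplex with the most uniform direction. All 6 had positive differences, of 0.32 to 1.01, and of 0.22 to 0.86 without gene-poor blastomeres and 0.20 to 0.54 between medians. Of all 13604 genes, 5925 were above 0, 5569 without gene-poor blastomeres and 3647 between medians. Of the 5199 genes with a mean of at least 10 at a stage, these were 2579, 2280 and 2407. Psmc1, Psmc2 and Psmc3 each had 23 of 26 8-cell values above their 4-cell median, as did the β subunit Psmb7. Psmc4 and Psmc5 had 20 each and Psmc6 had 19. The sum of the 6 ATPases had a median of 1432 FPKM (range 511 to 2107) at the 4-cell and 1857 (1490 to 2602) at the 8-cell stage, with overlapping ranges. The rings of the core showed no common direction once the gene-poor blastomeres were left out, with 6 of 14 differences above 0 and 8 below and a median of -0.05. Over all 13604 genes 5569 were then above 0 and 8029 below, with a median of -0.07, so the rings lay near all genes. Among the non-ATPases the base scaffolds Psmd2 and Psmd1 and the lid subunit Psmd3 had differences of 0.54, 0.36 and 0.46 without gene-poor blastomeres, and the abundant Psmd4, Psmd7, Psmd11 and Psmd12 lay between -0.08 and 0.00. Psmd6 and Psmd13 had 0.38 and 0.24, and Psmd8 and Psmd14 had 0.02 each. Psmd2 had medians of 73.9 and 121 FPKM, the only subunit called higher between medians.

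**Figure D5:**
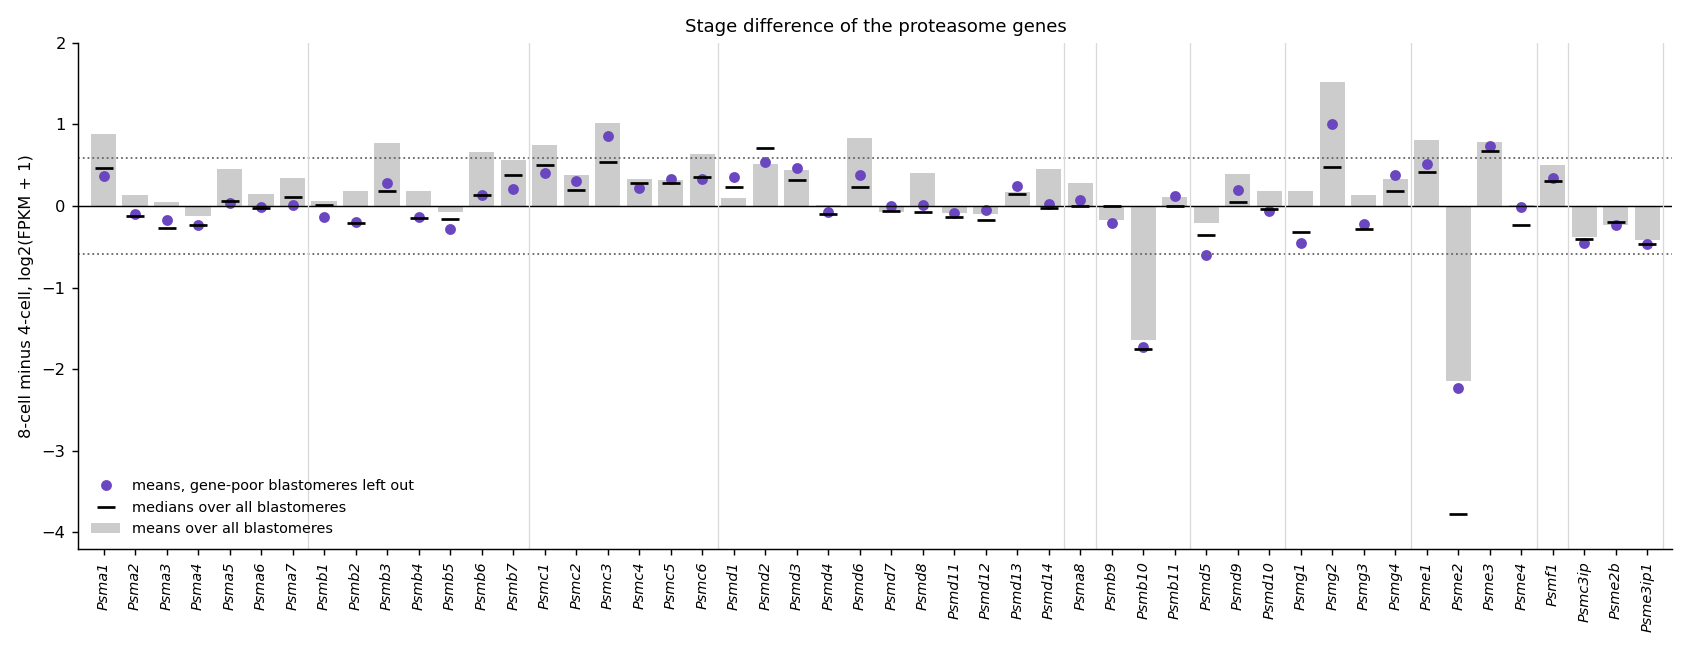
Difference between the stages, 8-cell minus 4-cell on the log2(FPKM + 1) scale, for the 50 listed genes, from means over all blastomeres (bars), means without gene-poor blastomeres (points) and medians (dashes). Dotted lines mark a 1.5-fold difference and grey lines part the roles. Psmb10 and Psme2 are below -1.6 by each measure, and of the constitutive subunits only Psmc3 stays past the upper line without gene-poor blastomeres.

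Of the 19 other listed members, 3 were called higher and 2 lower, against the 11.6% and 15.9% of all genes, and 2 were called higher and 3 lower without gene-poor blastomeres, against 10.4% and 17.6%. Psmb10 and Psme2 were the lower ones, with differences of -1.65 and -2.14, of -1.73 and -2.23 without gene-poor blastomeres, and of -1.76 and -3.78 between medians. Psme1, the partner of Psme2, had a difference of 0.81, which was 0.51 without gene-poor blastomeres and 0.56 without the 5 columns of the 8-cell stage that are named NA. Psme3 was called higher by all of these measures, with 0.79, 0.74 without gene-poor blastomeres and 0.67 between medians. Psmg2, the assembly chaperone PAC2, had a difference of 1.51, 1.0 without gene-poor blastomeres and 0.48 between medians. It was below 10 FPKM in 6 of 24 4-cell blastomeres, with a median of 64.4, and in 1 of 26 8-cell blastomeres, with a median of 90.2. The cap chaperone Psmd5 was lower, with a difference of -0.20, and of -0.60 without gene-poor blastomeres, where leaving out 1 more blastomere put it within 1.5-fold in 14 of 44 cases.

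Genes that act with the proteasome but lie outside the naming rule were looked at with the same measures. Of 27 listed partners, 4 were called higher and 2 lower at the 8-cell stage, against 11.6% and 15.9% of all genes, and the median difference was -0.0019, and 0.17 without gene-poor blastomeres. Uba1, the main enzyme that activates ubiquitin, had the largest difference, with means of 37.2 and 93.5 FPKM and a value of 2.05, and 1.93 without gene-poor blastomeres. The shuttle proteins Rad23b and Ubqln2, which bring ubiquitylated proteins to the proteasome, were called higher at 0.93 and 0.98, from means of at most 9.85 FPKM at the 4-cell stage, as was the adaptor Ecpas at 0.95. The stress regulator Nfe2l2 and the glycanase Ngly1, which processes Nfe2l1, were called lower at -1.21 and -1.05. Nfe2l1 itself had means of 4.29 and 4.58 FPKM. The subunits Adrm1 and Sem1, which belong to the complex under other names, and the maturation factor Pomp had means of 284 and 340, 195 and 153, and 409 and 366 FPKM, within the range of the constitutive subunits. In the other complexes, 3 of 8 CCT genes and 2 of 9 COP9 genes were called higher and 1 COP9 gene lower, against the same 11.6% and 15.9% of all genes. Without gene-poor blastomeres 1 CCT gene and 2 COP9 genes were called higher and 1 COP9 gene lower, against 10.4% and 17.6%.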

How the data were processed

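The authors aligned the reads with STAR 2.5.1b to mm10, kept uniquely aligned ones, counted them with HTSeq on RefSeq genes and deposited FPKM values, 1 gene table a stage. The gene lengths and totals behind FPKM are not given in the sources used here. The stage of each table comes from the study's numbers of genes and blastomeres. No column name matches a single sample, so embryos and lineages were not assigned, 5 8-cell columns are named NA, and a test over embryos was not run. Neither the order of columns nor their depth was used to map them. The 50 columns of the repeat tables were not used.

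Entrez identifiers were matched to RefSeq (GRCm38.p6), 15200 and 15320 of them. Values were analysed with Python 3.11.15, numpy 2.4.6 and pandas 2.3.3, with a pseudocount of 1, a 1.5-fold threshold and no filter unless stated. Fragments were recovered as multiples of the smallest step. For genes with a single curated transcript and few recovered fragments, at least 90.6% of the values were whole within 0.1 in every blastomere. Larger fragment numbers were not checked in this way. Simulated data were used to test the recovery, which gave 20 of 20 denominators within 1%. The effect of gene lengths that differ from those of the authors was not tested. Reads carry no molecular identifiers. Every member found by the symbol rule was reported. The members and lists were chosen with earlier results of these data known. Of 28 partners listed for the comparison, 27 were found in the annotation, and 1 further gene of that list is not reported here.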

Additional observations from a re-analysis of the deposited data

How the results depend on the processing

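No test was made, so values are compared by size. Rescaling each blastomere to a fixed total over the listed genes put the summed subunits at 20631 (4-cell) and 23167 (8-cell), a change of scale. The median SD of the subunits was 0.47 without gene-poor blastomeres, 1.07 rescaled and 1.24 with a pseudocount of 0.1 at the 4-cell stage, and 0.40, 0.39 and 0.44 at the 8-cell stage, where leaving out the columns named NA gave 0.47. The median stage difference of the subunits was 0.31 without the columns named NA, 0.040 without gene-poor blastomeres, 0.32 rescaled, 0.33 with a pseudocount of 0.1 and 0.10 between medians. The number of subunits called higher was 1 both without gene-poor blastomeres and between medians, against 1412 and 1419 of all 13604 genes. That of the other members was 5 with a pseudocount of 0.1 and 1 between medians. Leaving out 1 blastomere at a time, chosen after the data were seen, gave a median difference of 0.12 to 0.36, 1 to 8 subunits called higher and 0 to 0 lower, and 3 to 4 other members called higher and 2 to 3 lower. The lowest of these came without the 4-cell blastomere with 3009 genes. Of 84 values of the 12 called members, 67 stayed past 1.5-fold, 17 did not, and none changed sign. With gene-poor blastomeres left out and 1 more at a time, also chosen late, Psmb10, Psme2, Psme3 and Psmg2 stayed past 1.5-fold, Psmc3 ran from 0.54 to 0.92 and Psmd5 from -0.67 to -0.53. The median over all genes lay between -0.11 and 0.00. No paired analysis was possible because nothing links a blastomere of one stage to one of the other. Depth limits the genes of a few FPKM, where a value of 0 can be a missed transcript.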
